A study of Mus musculus with 6 samples.

Results

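Ttr, Folr1, Kl, Calml4, Slc12a2, Slc4a2, Cab39l and Lbp, 8 genes expressed by the choroid plexus, were followed across 6 mouse hippocampus samples. They were read by 9 of the 12422 probe sets that are not controls, and make up 8 of 8251 named genes. The 8 genes had been picked by name because they moved with Ttr in these same samples, so their likeness to Ttr is described here and not tested. The study concerned mice overexpressing HuD, a neuronal RNA-binding protein, and each sample was total hippocampal RNA on an array of its own. Per the labels, the samples are numbered 1 to 6 and carry no genotype, so none is called an overexpressor or a control, and no group was compared. The labels give no strain, age or sex, no promoter driving HuD, and no statement on whether RNA was pooled. Each gene thus has 6 single values with no replicate behind any of them, and neighbouring levels cannot be shown to differ beyond an error.

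The choroid plexus is the secretory epithelium that lines fronds inside the brain ventricles and makes the cerebrospinal fluid. It lies next to the hippocampus in the lateral ventricle. Its cells move sodium, chloride and bicarbonate from blood to ventricle through transporters placed on opposite faces, and release carrier proteins, of which transthyretin is the best known. Klotho and the folate receptor are further characteristic products of this epithelium, while the ion transporters are also made by other brain cells.

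The sequence before the transcription start is shown for Kl, Calml4 and Cab39l, from the RefSeq promoter table (GRCm38.p6). Of the 4 members used from that table these are the ones with a motif match, as was seen after the search. The other is Slc4a2. The windows of Ttr and Slc12a2 are not reported here and Folr1 and Lbp had no listed window. Nothing is said here of motifs before these genes, and any absence of a motif covers the reported windows only. Each run holds the 250 bases before a listed start, on the plus strand, and capitals mark every match to the 5 motifs searched on both strands. The windows are chr5:150952357-150952606 for Kl, chr9:62857854-62858103 for Calml4 and chr14:59440713-59440962 for Cab39l.

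Kl: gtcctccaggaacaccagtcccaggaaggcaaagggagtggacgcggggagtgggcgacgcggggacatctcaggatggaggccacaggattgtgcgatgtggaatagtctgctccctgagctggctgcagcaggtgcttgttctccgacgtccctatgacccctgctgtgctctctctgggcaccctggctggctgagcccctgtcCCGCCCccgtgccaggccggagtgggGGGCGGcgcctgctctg

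Calml4: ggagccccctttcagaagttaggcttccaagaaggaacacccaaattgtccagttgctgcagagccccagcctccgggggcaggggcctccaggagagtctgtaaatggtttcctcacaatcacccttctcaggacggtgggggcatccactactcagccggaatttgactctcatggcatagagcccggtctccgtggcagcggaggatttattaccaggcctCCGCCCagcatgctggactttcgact

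Cab39l: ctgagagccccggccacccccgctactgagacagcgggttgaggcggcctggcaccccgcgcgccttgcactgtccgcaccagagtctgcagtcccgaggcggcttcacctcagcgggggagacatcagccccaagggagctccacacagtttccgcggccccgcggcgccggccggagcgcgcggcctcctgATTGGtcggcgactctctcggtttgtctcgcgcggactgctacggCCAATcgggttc

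The motif TAATCC is bound by OTX homeodomain proteins and TGTTTAC by forkhead proteins, CCAAT is the letters of the CCAAT box, GGGCGG is known as the GC box and the TATA box was searched as TATAAA. No matches overlapped. Positions given here are those of the leftmost printed base of a match, whichever its strand. Kl held the GC box at 2 places, 17 bases before the start on the plus strand and 43 bases before it on the minus strand. Calml4 held it at 1 place, 26 bases before the start on the minus strand, and Cab39l held CCAAT 12 and 57 bases before the start, once on each strand. Neither TAATCC nor the forkhead motif TGTTTAC was in these windows, and Slc4a2 held none of the 5 motifs in either of its 2 windows, nor Cab39l in its second. Among all 32851 windows of this length, TAATCC was in 6.25%, TGTTTAC in 3.17%, CCAAT in 33.8%, GGGCGG in 32.7% and TATAAA in 12.4%. The windows of Kl and Cab39l had GC contents of 66.8% and 70.8%, and that of Calml4 57.6%, against a median of 52.4%.

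Values below are the deposited signal intensities on a linear scale, whose array medians lay between 59.9 and 63.3. A signal under the array median is not shown to be above background. Folds were taken after dividing by the median of the array, so that a log2 value of 0 is that median, with a floor at 0.2 of it. A fold called bounded is the same after raising every value under the array median to it.

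Ttr encodes transthyretin, the carrier of thyroxine and of the retinol-binding protein in the cerebrospinal fluid. The signal of Ttr was 20.5, 44.9, 215, 1504, 482 and 1798 across samples 1 to 6. Samples 4 and 6 were the highest and close together, 1.20-fold apart, and samples 1 and 2 were dimmer than the array median. The highest sample was 87.6 times the lowest, 28.6 times when bounded and 39.1 times without sample 1. In such bulk tissue, fewer cells of a type and less RNA per cell cannot be told apart.

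The other secreted product, Lbp, encodes the lipopolysaccharide-binding protein, which hands bacterial lipopolysaccharide to CD14. The signal of Lbp was 105, 89.3, 97.7, 176, 122 and 174 in samples 1 to 6. Samples 4 and 6 stood above the other samples, sample 5 lay between, and samples 1, 2 and 3 were low, with sample 2 the lowest. The range was 1.92-fold, and all 6 values lay above the array median.

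Kl encodes klotho, the membrane protein that pairs with fibroblast growth factor receptors to bind FGF23 and is also shed into the cerebrospinal fluid. The signal of Kl was 45.8, 37.2, 42.6, 138, 83.3 and 146 in samples 1 to 6. Samples 1, 2 and 3 were below the array median in a narrow band, sample 5 above them, and samples 4 and 6 highest. The range was 3.85-fold and 2.33-fold when bounded. The readings of Kl did not follow those of Ttr between samples 1 and 2. Ttr read 2.24 times higher in sample 2 and Kl 0.83 times its level in sample 1. All of these readings were under the array median, so the difference is not shown to be above background.

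Folr1 encodes the folate receptor through which this epithelium carries folate into the cerebrospinal fluid. The signal of Folr1 was 22.7, 38.9, 51.4, 123, 127 and 162 in samples 1 to 6. Samples 4, 5 and 6 lay above the array median and samples 1, 2 and 3 below it. The range was 7.13-fold and 2.58-fold when bounded, and 4.07-fold without sample 1. Samples 4 and 5 had like levels of Folr1 (a ratio of 0.97), although Ttr was 3.11 times higher in sample 4. A second probe set of Folr1, whose name marks it as shared within a gene family, read 9.97 to 15.6, under the array median throughout and at the floor in 3 samples, and so gave no usable pattern.

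Both ion transporters were above the array median in every sample. Slc12a2 encodes the sodium-potassium-chloride cotransporter of the apical face of the choroid plexus, which is also found in other brain cells. The signal of Slc12a2 was 322, 371, 372, 559, 413 and 521 in samples 1 to 6, a range of 1.72-fold. Samples 4 and 6 were again the highest, here with sample 4 above sample 6. Slc4a2 encodes a chloride-bicarbonate exchanger of the basolateral face. The signal of Slc4a2 was 138, 122, 176, 190, 175 and 202 in samples 1 to 6, a range of 1.63-fold. Here sample 3 was level with sample 5, and samples 1 and 2 stood below the rest.

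Cab39l encodes a scaffold protein of the MO25 type, which holds the kinase LKB1 in its active complex, and MO25 proteins also activate the kinases that switch on the Slc12a2 cotransporter. The signal of Cab39l was 138, 137, 161, 190, 157 and 187 in samples 1 to 6, the narrowest range of the 8 genes at 1.36-fold. Samples 4 and 6 were the highest and samples 1 and 2 the lowest. Calml4 encodes a calmodulin-like protein known from the brush border of the gut. The signal of Calml4 was 18.8, 45.5, 46.0, 93.6, 55.3 and 81.4 in samples 1 to 6. Only samples 4 and 6 were above the array median, and sample 1 stood apart at the low end. The range was 4.95-fold and 1.48-fold when bounded, and 1.99-fold without sample 1.

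**Figure D1:**
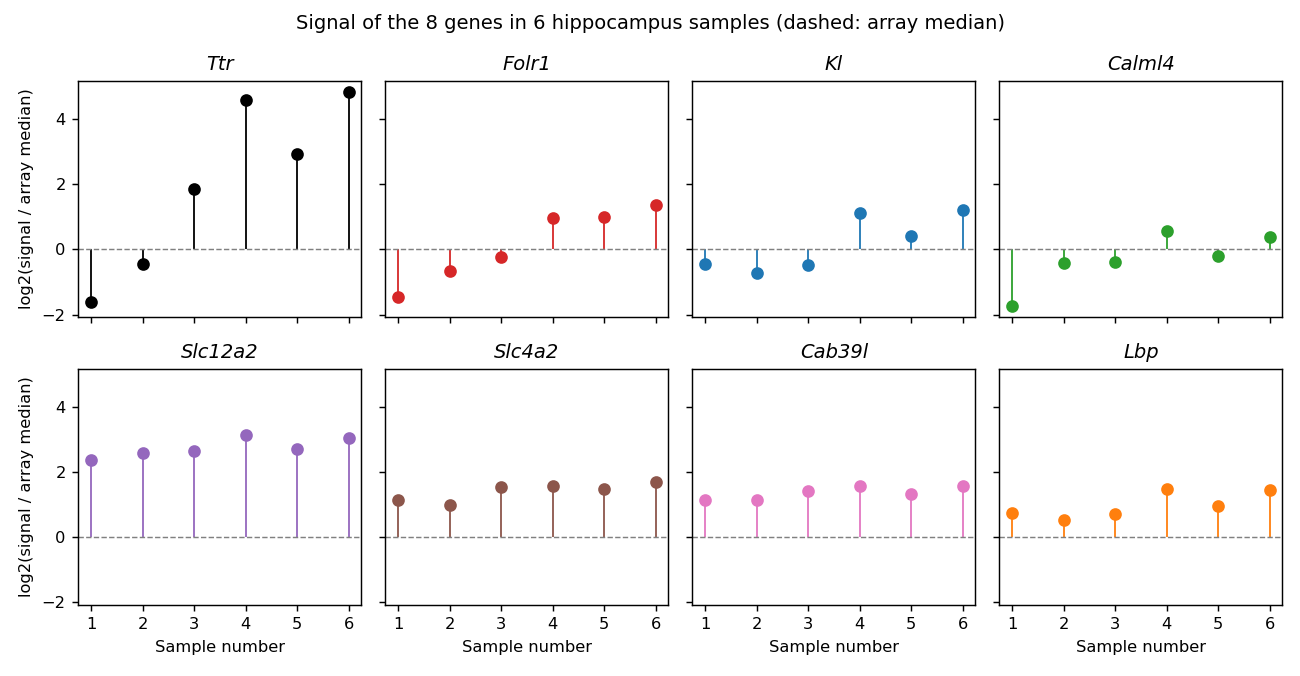
Log2 of the signal over the array median (vertical axis) in each of the 6 samples (horizontal axis), 1 panel for each of the 8 genes, on a common scale; the dashed line is the array median, points are single samples and have no error bars. Ttr spans 6.45 log2 units and Cab39l 0.44, and the highest point of every panel is in sample 4 or sample 6.

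Across the 8 genes, 4 were highest in sample 4 and 4 in sample 6, while 5 were lowest in sample 1 and 3 in sample 2. In 7 of them samples 4 and 6 held both top places, the exception being Folr1, where sample 5 edged past sample 4. The highest sample was over 2 times the lowest for 4 of the 8 genes (Ttr, Folr1, Kl and Calml4), against 12.9% of all 8251 named genes and 4.13% of the 4838 expressed ones. An expressed gene is one with a median value above the array median, which 6 of the 8 did and Kl and Calml4 did not. The members were chosen on these values, so nothing is read from that comparison.

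The likeness of each gene to Ttr was measured as Pearson's r of log2 values over the 6 samples, with Spearman's rho beside it. The arrays are of 1 type and were scaled alike, and no p is given because the genes were picked for this pattern. The titles hold a code, not explained in the labels, which reads 2 in sample 2 and 1 elsewhere, so sample 2 may differ in a way that cannot be named here. Folr1 came closest, with r = 0.96 and rho = 0.94, followed by Cab39l (r = 0.94, rho = 0.89) and Slc12a2 (r = 0.93, rho = 0.94). Calml4 had r = 0.91 and rho = 0.94, Slc4a2 r = 0.90 and rho = 0.89, and Kl r = 0.90 and rho = 0.83. Lbp was the least like Ttr, with r = 0.87 and rho = 0.77. All 7 were at 0.8 or above, the value used here to call a gene like Ttr, as were 2.84% of the 4832 other expressed genes and 2.5% of all 8243 other named genes.

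Samples 1 and 2 lay farthest from the median of Ttr, and r over the remaining 4 samples shows which genes leaned on them. It was 0.99 for Kl and for Lbp, 0.96 for Calml4 and for Slc12a2, and 0.86 for Folr1. For Cab39l it was 0.77 and for Slc4a2 0.68, so for these 2 genes an r of 0.8 rested on the samples in which Ttr was under the array median. On linear signals in place of log2 values, r was 0.99 for Kl, 0.98 for Lbp, 0.95 for Slc12a2, 0.90 for Cab39l and for Calml4, 0.88 for Folr1 and 0.79 for Slc4a2. Kl and Lbp thus had the highest r over the samples where Ttr was bright, and Folr1 over the whole span on the log2 scale. Over so few single arrays, small differences in r are not shown to rank the genes.

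The genes differed in how steeply they moved with Ttr. For a 10-fold difference in Ttr the fitted line gave a 2.57-fold difference in Folr1, 1.97-fold in Kl and 1.92-fold in Calml4. It gave 1.36-fold in Lbp, 1.27-fold in Slc12a2, 1.25-fold in Slc4a2 and 1.17-fold in Cab39l. The steep genes were the ones with at least 3 samples under the array median, and the shallow ones had all 6 above it. Among the 7 genes without Ttr, the 21 pairwise r ran from 0.69 to 0.98 with a median of 0.84, and 15 were at 0.8 or above. Set against each gene's median sample, these 7 genes had a median deviation of -0.38, -0.31, -0.09, 0.59, 0.09 and 0.62 on the log2 scale in samples 1 to 6, and Ttr one of -4.00, -2.84, -0.55, 2.18, 0.55 and 2.45.

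**Figure D2:**
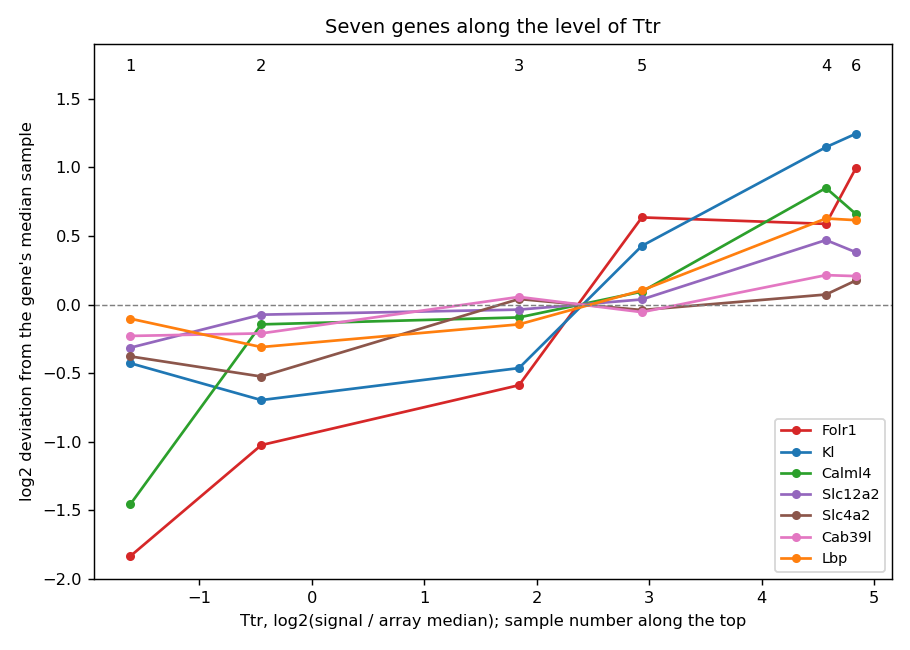
Difference on the log2 scale between each sample and the median sample, for 7 genes (vertical axis) against the log2 level of Ttr relative to the array median (horizontal axis); each point is 1 sample, numbered along the top, and lines join the samples of a gene. Folr1 climbs most steeply and Cab39l and Slc4a2 least, and samples 4 and 6 lie above the median sample for all 7 genes.

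Further genes known from the choroid plexus were taken from a list of 45, none of them among the 8. Of these, 24 were measured, 21 were not analysed here, and 8 of the 24 were expressed. Like Ttr by the 0.8 rule were 3 of the 8 expressed genes (37.5%), and their median r was 0.56. Among all expressed genes outside the members, with the list genes included, the share was 2.84% and the median r -0.10. None of the 8 had a range over 2-fold. The list was written with earlier results of these samples known, so its share is a description.

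Car14, a membrane-bound carbonic anhydrase that supplies bicarbonate, had signals of 84.8, 106, 121, 149, 133 and 163 in samples 1 to 6, a range of 1.92-fold. Its r with Ttr was 0.97, and its order of samples was that of Ttr. That order held for 4 of the 4832 expressed genes outside the members (0.0828%), Car14 among them. Slc31a1, a copper importer, had signals of 91.9, 89.9, 103, 140, 110 and 148, a range of 1.61-fold and an r of 0.95. It shared the order of Ttr after scaling, while in deposited signals samples 1 and 2 changed places, and its second probe set had an r of 0.75. Ezr encodes ezrin, which ties microvilli to the cytoskeleton. The signal of Ezr was 173, 168, 181, 234, 218 and 245, a range of 1.42-fold with an r of 0.97. All 3 genes had their highest value in sample 6 and the next in sample 4, and over samples 3 to 6 their r was 0.95 to 0.97.

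The other 5 expressed genes of the list stayed under an r of 0.8 over the 6 samples, and for 4 of them this rested on samples 1 and 2. Igf2, a growth factor of choroid plexus and meninges, read 471, 580, 441, 575, 440 and 674 (r = 0.38), and Igfbp2, a binding protein for such factors, read 188, 202, 156, 209, 184 and 265 (r = 0.46). Both were highest in sample 6 but also stood higher in samples 1 and 2 than in sample 3, where Ttr was at 215. Car12, a further carbonic anhydrase, had an r of 0.67, Msx1, a homeobox factor, -0.47, and Cox8b, a respiratory chain subunit, -0.49. Over samples 3 to 6 the r was 0.87 for Igf2, 0.91 for Igfbp2, 0.83 for Car12 and 0.94 for Cox8b, whose sign thus turned, and 0.02 for Msx1. Over these 4 samples, 7 of the 8 expressed genes of the list passed 0.8, as did 7.66% of the 4830 expressed genes outside the members.

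Among the 16 dim genes of the list, 13 never rose above the array median. They include Aqp1, the water channel of the apical face, with 34.4, 12.7, 15.6, 20.4, 19.96 and 14.1 in samples 1 to 6, and the tight junction gene Cldn2 at 7.01 to 17.4. They also include the serotonin receptor gene Htr2c at 23.9 to 32.8, and Wfdc2, which was at the floor in all samples. Slc4a5, a sodium bicarbonate cotransporter of this epithelium, read 1.69, 0.85, 5.76, 19.8, 11.7 and 32.03, and the coagulation factor gene F5 read 4.10, 2.57, 13.5, 26.4, 12.9 and 44.9. Both dim genes had their 2 highest readings in samples 6 and 4, though no reading under the array median is shown to be above background. The remaining dim genes had r of 0.76 (Col8a1), 0.64 (Ace), 0.42 (Abca4), -0.03 (Krt8), -0.05 (Krt18), -0.12 (Bmp6), -0.51 (Stra6) and -0.53 (Bmp7). The 0.8 rule was passed by 2 of the dim genes, Rdh5 (r = 0.84) and Cdr2 (r = 0.86), and over samples 3 to 6 their r was 0.09 and -0.36.

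**Figure D3:**
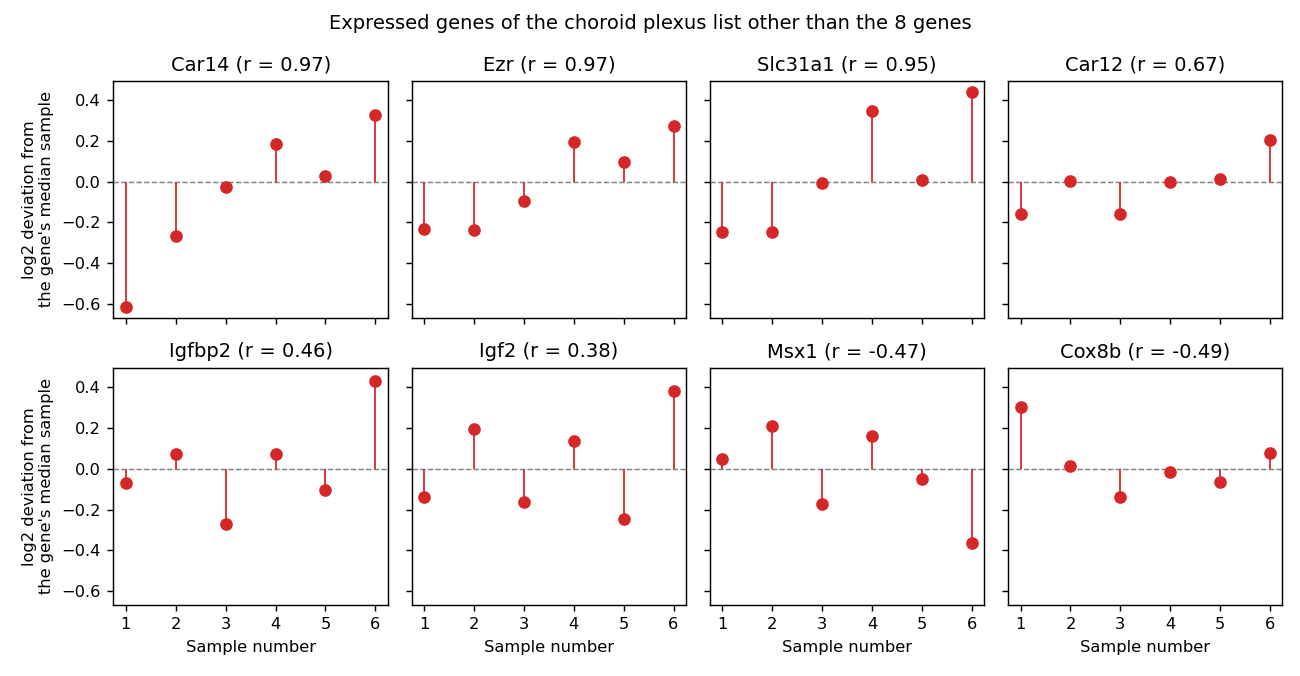
Difference on the log2 scale between each sample and the median sample of the gene (vertical axis) in samples 1 to 6 (horizontal axis) for the 8 expressed genes of the choroid plexus list, ordered by r with Ttr; points are single samples with no error bars. Car14, Ezr and Slc31a1 are lowest in samples 1 and 2 and highest in samples 4 and 6, while Msx1 is lowest in sample 6.

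The pathways in which the 8 genes act were taken from 7 further lists, leaving out the 8 genes themselves. Among partners of Ttr in thyroid hormone and retinol carriage, 0 of 5 expressed genes reached an r of 0.8, and Rbp4, the retinol-binding protein that Ttr carries, had an r of -0.85, but 0.46 over samples 3 to 6. The signal of Rbp4 was 91.7, 79.7, 59.1, 61.6, 58.4 and 65.4 in samples 1 to 6. It was highest in samples 1 and 2, where Ttr was lowest, and near the array median in samples 3 to 6. In folate handling 0 of 6 reached it, including the reduced folate carrier Slc19a1 (r = 0.05), with Fpgs the widest at 1.39-fold. Beside Kl, 0 of 5 expressed genes of fibroblast growth factor signalling reached it, and its partner receptor Fgfr1 had an r of -0.23. The widest of these was Fgfr3, which had signals of 28.8 to 147 and an r of -0.18.

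Around Slc12a2 and Cab39l, 0 of 8 expressed genes of cation-chloride cotransport and its kinases reached an r of 0.8. Cab39, the ubiquitous relative of Cab39l, had an r of 0.65 and a range of 1.25-fold, and the kinase genes Stk39 and Wnk1 had r of 0.04 and 0.48. Slc12a5, the neuronal potassium-chloride cotransporter, was the widest at 3.58-fold with an r of 0.23, with 46.9 in sample 3 at the low end and 177 in sample 5 at the top. In bicarbonate and sodium transport 1 of 11 reached it, Car14 (also on the choroid plexus list), and the sodium pump subunit Atp1b1 had an r of -0.62. For lipopolysaccharide recognition 0 of 5 reached it, with Lcn2 the widest at 1.47-fold and Cd14, the receptor served by Lbp, at an r of -0.55. For calmodulins and the brush border 1 of 3 did, which was Ezr, and Calm2 had an r of -0.06.

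Markers of other cells that such samples can hold were set beside these values. Of the hippocampal neuron list 9 of 10 measured genes were expressed, and none reached an r of 0.8 with Ttr (0.61 at most, median 0.45). Camk2a, the widest of them at 3.51-fold, had an r of 0.29. Ependyma, the ciliated lining that adjoins the choroid plexus, had 0 of 5 expressed genes at 0.8 and a median r of 0.05, with its ciliary regulator Foxj1 at 0.53 and a range of 1.45-fold. The summed signal of its 7 measured genes, in units of the array median, ran from 15.3 in sample 1 to 17.9 in sample 6. One dim gene of that list, Mia, moved with Ttr at 43.0, 42.4, 50.5, 77.6, 49.6 and 80.1 (r = 0.91).

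Meninges and fibroblasts had a median r of -0.48, with 6 of 7 expressed genes below 0. That direction rested on samples 1 and 2: over samples 3 to 6 the median was 0.03, and 4 of the 6 genes turned above 0, Ptgds reaching 0.70. Ptgds, the prostaglandin synthase that is also made by the choroid plexus, was the widest at 3.67-fold, with 4057, 4699, 1757, 2196, 1317 and 3582 in samples 1 to 6. The summed signal of this list was highest in sample 2 (112), where Ttr was under the array median, and lowest in sample 5 (47.5). Ptgds had the largest signal of the list in every sample and so weighs most in these sums. The median log2 deviation of the 7 expressed genes was 0.34, 0.42, -0.01, -0.15, -0.15 and 0.17 in samples 1 to 6. Mural cells had a median r of -0.51 (0.13 over samples 3 to 6), the widest gene being Tagln at 2.36-fold, and their sum ran from 7.70 in sample 4 to 11.8 in sample 2. Endothelium had a median r of -0.27 (0.27 over samples 3 to 6) and 0 of 4 at 0.8. Its widest gene, Flt1, ranged 1.75-fold, and the sum of the list ran from 11.6 to 14.99. The expressed gene Slc2a1 was just under 0.8 (r = 0.795, and 0.06 over samples 3 to 6). Cdh5, under the array median throughout, had an r of 0.89 (0.81 over samples 3 to 6).

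The expressed myelin and blood markers had r with Ttr above 0 over the 6 samples. For myelin the median r was 0.72 and 1 of 7 expressed genes reached 0.8, which was Ugt8a, a galactolipid enzyme (r = 0.84). The sums were 75.2, 80.2, 102, 95.99, 104 and 97.96 in samples 1 to 6, low in samples 1 and 2 and level in the other samples. Over samples 3 to 6 the sign turned for 6 of the 7 myelin genes and the median r was -0.36. The haemoglobin gene Hba-a1, the single expressed blood gene, read 938, 1019, 866, 1291, 975 and 1357 (r = 0.72), highest in samples 4 and 6, and its r over samples 3 to 6 was 0.98, beside 0.99 for Kl and Lbp and 0.86 for Folr1. Alas2, of haem synthesis, was under the array median throughout, with an r of 0.92 over all 6 samples and 0.58 over samples 3 to 6. The part of myelin, of blood or of any other cell type in the levels of the 8 genes was not tested. Thalamus and habenula genes had a median r of 0.37 (-0.42 over samples 3 to 6) with 1 of 7 at 0.8 (Zic1, r = 0.80), and Lef1 was the widest at 2.07-fold. Astrocytes had a median r of 0.22 (-0.66 over samples 3 to 6) with 0 of 9, Fgfr3 again the widest, and microglia 0.25 (0.03) with 1 of 6, C1qb (r = 0.85), and with Cx3cr1 the widest at 1.40-fold.

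**Figure D4:**
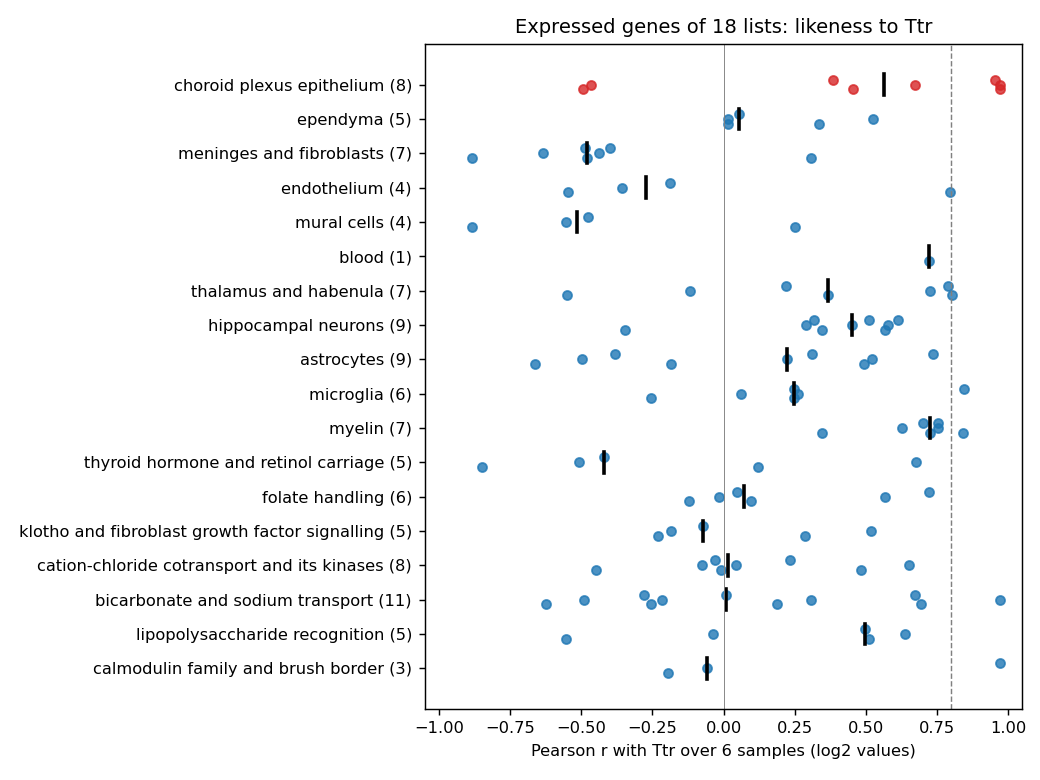
Pearson r with Ttr over the 6 samples (horizontal axis) for each expressed gene of 18 lists (rows, number of expressed genes in brackets), the 8 genes themselves left out; black bars are list medians and the dashed line is an r of 0.8. The choroid plexus list, in red, has 3 of 8 genes beyond the dashed line, and the meninges and mural cell lists have medians of -0.48 and -0.51 (0.03 and 0.13 over samples 3 to 6).

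The 3' to 5' signal ratios of the array's control genes, a sign of RNA quality, had r with Ttr on the log2 scale of 0.10 for pyruvate carboxylase, 0.37 for the transferrin receptor, 0.02 for beta-actin and -0.20 for Gapdh. For pyruvate carboxylase the ratio was 1.57 at its lowest, in sample 2, and for the transferrin receptor 2.54, in sample 1. Both were highest in sample 3, at 3.56 and 3.47. The ratios of beta-actin (1.11 to 1.27) and Gapdh (0.79 to 0.86) were lowest in sample 2 and highest in sample 1, the 2 samples in which Ttr was lowest.

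Of all expressed genes with a range over 2-fold, 198 beside the members, the 10 most like Ttr by r were taken. Pdia4, a protein disulphide isomerase of the endoplasmic reticulum, came first with r = 0.98 and rho = 0.94. Its signal was 50.5, 53.6, 78.2, 109, 89.2 and 100.02 in samples 1 to 6, a range of 2.15-fold, and samples 1 and 2 were below the array median. Tyk2, a Janus-family kinase, followed with r = 0.91 and signals of 93.8, 78.1, 95.9, 169, 119 and 165, and Gja5, a connexin gene, with r = 0.88 and a range of 2.54-fold. Elf4 (r = 0.85), Ugt8a (0.84), Icmt (0.81), Copz2 (0.80), Lef1 (0.79), Ada (0.76) and Lamp2 (0.75) completed the set. Other probe sets of Lef1, Ada and Lamp2 had r of -0.03, -0.13 and -0.08, that of Lef1 with 5 of 6 values at the floor. Over samples 3 to 6, Pdia4, Tyk2 and Gja5 had r of 0.94, 0.99 and 0.86, and the other 7 had r of 0.62 or less, with Lamp2 at -0.92. Apart from Ada and Tyk2, which were lowest in sample 2, these genes were lowest in sample 1.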

How the data were processed

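RNA from 6 hippocampus samples was measured, 1 array each. The deposited table holds 1 linear intensity for each probe set and array; for scanner, summary method and build the sources used here give nothing. The mean between the 2nd and 98th percentile was 150.0 on every array, as scaling to a common target gives. No value was missing or at or below 0, and 0 of 15 pairs of columns were identical. Without detection calls or scan dates, background, batch and the error of a single value are unknown, and precision is limited by the number of arrays.

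Probe sets with 1 gene symbol in the platform annotation (10833 of 12422, with 396 holding several and 1193 none) were named, and 10817 matched the RefSeq table (GRCm38.p6) by gene identifier. Each array was divided by its median over probe sets that are not controls, floored at 0.2 of it and put on the log2 scale, with the probe set of highest mean standing for a gene (Python 3.11.15, pandas 2.3.3). Likeness to Ttr is Pearson's r over the 6 samples, checked on simulated data. No label gives a group, so no test was run. Named genes were all members, the choroid plexus list, the widest expressed gene of each other list, pathway genes at an r of 0.8 or above, and the 10 most and 5 least like Ttr with a range over 2-fold; other genes were named after their values were seen. The members and lists were chosen with earlier results of these data known. Alternatives covered scaling, floor, probe set choice, expression filter, rank correlation and leaving out each sample; linear r and r over 4 samples were added after the data were seen.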

Additional observations from a re-analysis of the deposited data

How the results depend on the processing

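No paired analysis was possible because no label puts a sample in a group. All 7 genes beside Ttr had an r of 0.8 or above under quantile normalization, no scaling, both other floors, the mean of probe sets and without any single sample (7 to 7). With rho the count was 6 (Lbp at 0.77), on linear signals 6 (Slc4a2 at 0.79), and over samples 3 to 6 it was 5 (Slc4a2 at 0.68, Cab39l at 0.77). The range of Ttr was 28.6-fold with the floor at the array median, and 39.1-fold to 87.6-fold with a sample left out. The count of members with a range over 2-fold was 3 to 4, being 3 without sample 1, where Calml4 dropped out, and with the floor at the array median. Averaging its 2 probe sets gave Folr1 a range of 2.93-fold. The 3 choroid plexus list genes like Ttr were 5 of 24 with no expression filter, 1 of 3 with the filter at the 75th percentile, 7 of 8 over samples 3 to 6, and 3 to 3 with a sample left out. Expressed genes outside the members that were like Ttr were 137 of 4832 (2.84%). In the same order of settings they became 206 of 8243 (2.5%), 63 of 2537 (2.48%) and 370 of 4830 (7.66%). Changing the expression filter thus moved the count along with the number of genes kept, and the share little. Scaling moved it more, to 192 of 4833 (3.97%) under quantile normalization and 191 of 4832 (3.95%) with no scaling. With the floor at the array median it was 98 of 4900 (2.0%), and with the mean of probe sets 103 of 4310 (2.39%). Leaving out a sample gave 154 of 4839 (3.18%) to 315 of 4839 (6.51%). The count was 315 without sample 2, 268 without sample 3, 231 without sample 5 and 259 without sample 6. An r of 0.8 is reached more easily over fewer samples. With no detection calls, the levels of Ttr in samples 1 and 2, and of Folr1, Kl and Calml4 under the array median, are bounded only by the array median.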

Other observations

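Some genes ran opposite to Ttr. The 5 expressed genes with the lowest r and a range over 2-fold were Igfbp6 (r = -0.91), an insulin-like growth factor binding protein, St8sia2 (-0.90), a polysialyltransferase, Mgp (-0.88), the matrix Gla protein, Cdh13 (-0.88), a cadherin, and Hnrnpl (-0.88), a splicing regulator. All 5 were lowest in sample 4 after scaling. Mgp had signals of 129, 85.8, 62.8, 43.5, 60.6 and 65.8 in samples 1 to 6, and Igfbp6 had 145, 144, 70.6, 57.3, 88.8 and 74.9. Igfbp6 was highest in sample 2 after scaling and the other 4 in sample 1. Over samples 3 to 6 their r ran from -0.38 for Cdh13 to -0.79 for St8sia2.

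With no limit on the range, chosen after the data were seen, the expressed genes closest to Ttr beside Pdia4 were Gab1 (r = 0.98), Ubtf (0.98), Tcn2 (0.98) and Acp2 (0.98). Tcn2, the vitamin B12 carrier transcobalamin, had signals of 151, 153, 171, 191, 179 and 201, a range of 1.33-fold. A second probe set of Gab1 had an r of 0.09. The genes whose 6 samples fell in the order of Ttr were Car14, Slc31a1, Fahd1 and Cipc, and Fahd1 read 145, 158, 175, 220, 186 and 263, with a range of 1.82-fold.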
